A study of Ovis aries with 9 samples.

Results

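The solute carrier families that move amino acids across membranes were followed in single sheep hepatocytes through gestation and lactation. Members were taken by symbol, as every gene of the deposited count table named in families SLC1, SLC3, SLC6, SLC7, SLC36, SLC38 or SLC43. This gave 58 of 28837 named genes, and 27 of them reached 1 CPM in at least 1 stage. CPM is the number of reads of a gene in every 1000000 reads of the stage, after TMM scaling, with the cells of a stage summed. The cells were liver hepatocytes of female sheep (Ovis aries), picked singly by hand and sequenced with Smart-seq3xpress, a plate method that gives each cell its own library from full-length cDNA. The groups were 1 virgin sample (label G0), 6 gestation samples (days 40 to 50, 50 to 70, 70 to 80, 90 to 100, 100 to 120 and 140 to 150) and 2 samples of lactation (days 7 and 15 after birth). No breed, age or animal number is given in the labels, and no treatment is named for any group. Each stage is 1 sample, and the p-values therefore reflect only how stages differ, which may in part be how animals differ.

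Amino acid carriers decide what a hepatocyte takes from portal blood for protein synthesis, urea and glucose, and what it gives back. SLC1 carriers bring in glutamate or exchange small neutral amino acids, SLC38 carriers bring in glutamine, alanine and their like with sodium, and SLC6 carriers use sodium and chloride for GABA, taurine or creatine. SLC7 holds the cationic carriers for arginine and lysine and a set of light chains, which reach the membrane only when bound to an SLC3 heavy chain. SLC36 includes carriers that run on protons, and SLC43 carriers are passive.

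The 9 stages held 246 to 553 cells each, 3404 in all, with 114865665 to 272944124 reads per stage. Hepatocyte markers were abundant throughout, and 12 of them together, ALB foremost, stood at 163494 to 220450 CPM in gestation, 182461 in the virgin sample, 114716 at day 7 of lactation and 83987 at day 15. Markers of other cells were far lower. At day 7 of lactation 4 red cell genes summed to 223.7 CPM (0.366 to 69.5 in gestation), 8 lymphocyte genes to 37.8 CPM (3.65 to 29.3) and 7 macrophage genes to 41.9 CPM (5.52 to 40.6), and at day 15 these sums were 2.72, 3.58 and 4.88 CPM. Stellate cell genes, 8 in number, were highest at days 100 to 120, at 25.3 CPM, and lowest at day 7, at 2.88 CPM. The 5 neutrophil genes measured summed to 3.59 CPM in the virgin sample, 0.470 to 2.56 CPM in gestation, 12.5 CPM at day 7 and 8.42 CPM at day 15. All 5 had a negative log2 fold change between gestation and lactation, 3 with an unadjusted p under 0.05 and 0 after adjustment in edgeR. Over all genes tested, 5.01% were negative at that unadjusted p. The macrophage gene CD68 was listed at 0 in every stage.

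Counted per length, the most abundant transporter mRNA was SLC38A4, a carrier of small neutral amino acids that is rich in liver, at 108 ± 20.5 RPKM (SD over the 9 stages). RPKM is CPM per 1000 bases of the gene length in the authors' table. SLC6A11, a GABA carrier, came next at 28.3 ± 5.37 RPKM and SLC38A2 after it at 14.1 ± 9.24. SLC7A9 (9.88 ± 1.78), SLC7A2 (9.49 ± 3.39) and SLC38A3 (8.44 ± 1.98) lay within 1 SD of one another. SLC38A10 (3.72 ± 1.10), SLC3A2 (3.58 ± 0.753), SLC38A9 (2.72 ± 0.325) and SLC1A2 (2.42 ± 1.51) formed a lower group, and the other 17 reported members stayed below 2 RPKM on average.

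**Figure D1:**
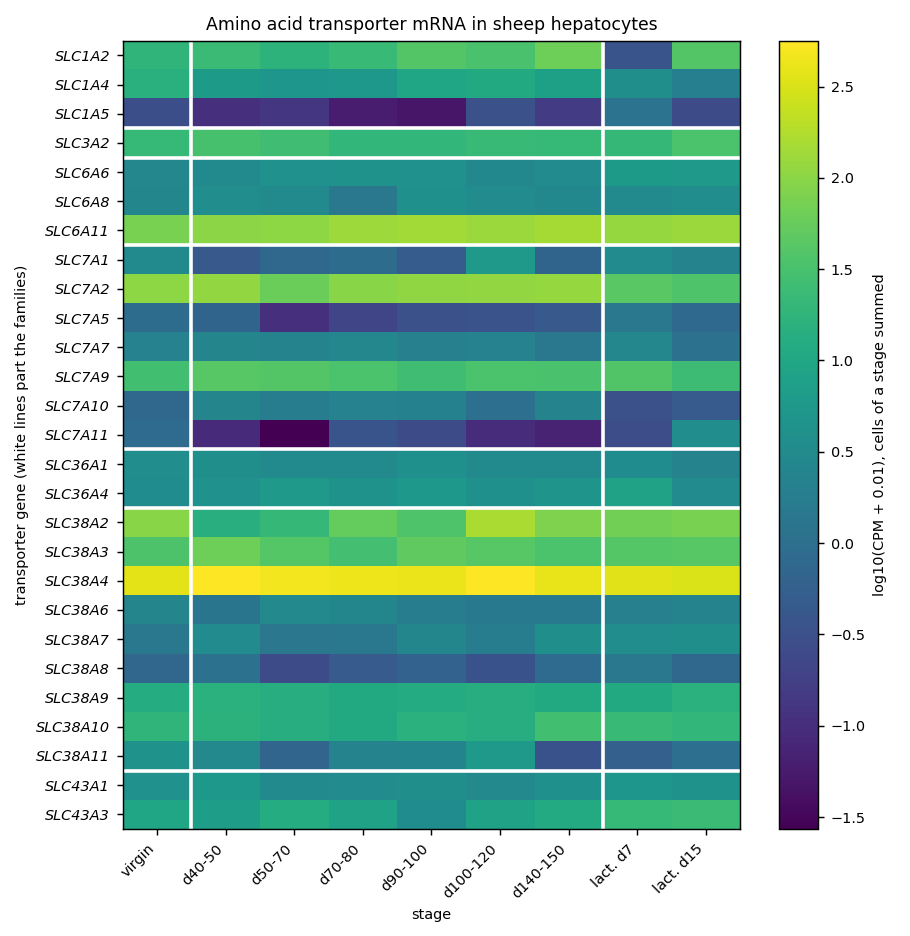
Level of the 27 reported transporters (rows, by family) in the 9 stages (columns), as log10 of CPM + 0.01. SLC38A4 is the brightest row in all 9 stages, and the SLC1A2 row has its highest value, 62.7 CPM, at days 140 to 150 and its lowest, 0.352 CPM, at day 7 of lactation.

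All 27 were tested, and of the 58 members 45 passed the filter on low counts of the fit over the 3 phases and 34 that of the trend over gestation. No member passed an adjusted p of 0.05 in edgeR's quasi-likelihood test in any of the 4 comparisons. The share of all genes that did was 0.0592% for gestation against lactation, 0.00494% for gestation against virgin, 0% for lactation against virgin (1000 genes had an unadjusted p under 0.05 there) and 0.0336% for the slope over gestation, which is fitted per 100 days on the middle of each range of days. At an unadjusted p under 0.05, 4 members were higher in gestation than in lactation and 6 were lower, beside 4.39% and 5.01% of all genes, which comes to 8.89% and 13.3% of the 45 members. The median log2 fold change was -0.05 over the members tested and 0.01 over all genes. Of the members, 2 were higher and 0 lower in gestation than in the virgin sample (2.3% and 2.15% of all genes), and 2 were higher and 2 lower in lactation than in the virgin sample (2.5% and 2.43%). The trend gave 3 members with a positive slope and 1 with a negative slope (3.2% and 3.41% of all genes). DESeq2, run as an alternative, called 5, 0, 1 and 2 members in the same order of comparisons, beside 2.95%, 0.671%, 0.565% and 1.77% of all genes with an adjusted p there.

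SLC7A2, the low-affinity cationic carrier through which hepatocytes take up arginine, lysine and ornithine, was lower in both lactation stages than in any other stage. It stood at 105 CPM in the virgin sample. The 6 gestation stages, by day, held 114, 61.6, 95.4, 108, 112 and 115 CPM, and lactation held 45.1 CPM at day 7 and 36.6 CPM at day 15. The groups did not overlap, and the mean in gestation was 2.48-fold that in lactation (101 ± 20.7 against 40.8 ± 5.98 CPM, SD, n = 6 and 2). The log2 fold change was 1.31 (SE 0.26, unadjusted p = 0.00045, adjusted p = 0.118, edgeR), and DESeq2 gave an adjusted p of 0.000206, the lowest over 13 alternatives whose highest was 0.394. Against the virgin sample, lactation differed by -1.36 (SE 0.34, unadjusted p = 0.00257, adjusted p = 0.744, edgeR). The sum of hepatocyte markers was also lower in lactation, as given above, and its part in this difference was not tested.

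Most cells carried SLC7A2 reads in every stage. At a common depth of 155164 reads per cell, its share of cells with reads was 97.7% in the virgin sample, 89.3% to 95.8% in gestation, 88.0% at day 7 of lactation (95% exact binomial interval 83.0% to 91.9%) and 77.4% at day 15 (73.4% to 81.0%). These intervals take the cells of 1 sample as independent and hold no spread between animals. Without thinning the share at day 15 was 82.5%. Most cells were thus still positive in lactation, while the summed level was below that of every other stage. Within each stage, cells with more SLC7A2 tended to have more of the urea cycle and periportal mRNAs, with Spearman rho from 0.20 to 0.49 for CPS1, 0.14 to 0.60 for ASS1 and 0.19 to 0.52 for HAL, over 213 to 495 thinned cells. The cells of a stage come from 1 sample, and the values are a description. Over all cells and within blocks of consecutive cell numbers, explained further on, rho was 0.16 to 0.44 for CPS1, 0.12 to 0.56 for ASS1 and 0.22 to 0.49 for HAL.

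Genes of arginine metabolism and the urea cycle had the same sign. Of 11 arginine and urea genes, 11 had a positive log2 fold change between gestation and lactation and 7 had an unadjusted p under 0.05, but 0 passed after adjustment, and the median was 0.88. Over all genes 51% were positive, and 4.39% were so at an unadjusted p under 0.05. CPS1, which makes carbamoyl phosphate for the urea cycle, held 2039.5 ± 261 CPM during gestation against 941 ± 98.4 during lactation (log2 1.12, SE 0.22, unadjusted p = 0.000442, adjusted p = 0.118, edgeR). ASL, the argininosuccinate lyase, stood at 189 ± 25.5 against 103 ± 32.0 CPM, and ASS1, the argininosuccinate synthase, at 584 ± 113 against 316 ± 61.9 CPM. The virgin sample, at 1912 CPM of CPS1, 213 of ASL and 474 of ASS1, lay above both lactation stages for each of these.

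SLC7A1, the high-affinity cationic carrier found in most tissues, was far scarcer in these cells, at 0.176 ± 0.163 RPKM against 9.49 ± 3.39 RPKM for SLC7A2. Its stage values were 3.05 CPM in the virgin sample, 0.434 to 5.77 CPM in gestation (median 0.712), and 3.26 and 2.27 CPM in lactation. Days 100 to 120 held the 5.77 CPM and no other gestation stage exceeded 0.908 CPM. There, 1 run of 25 of the 353 cells, numbers 204 to 228, averaged 37.4 CPM and held 48.3% of the CPM summed over cells. The mean per cell was 5.48 CPM with that run and 3.04 CPM without it.

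**Figure D2:**
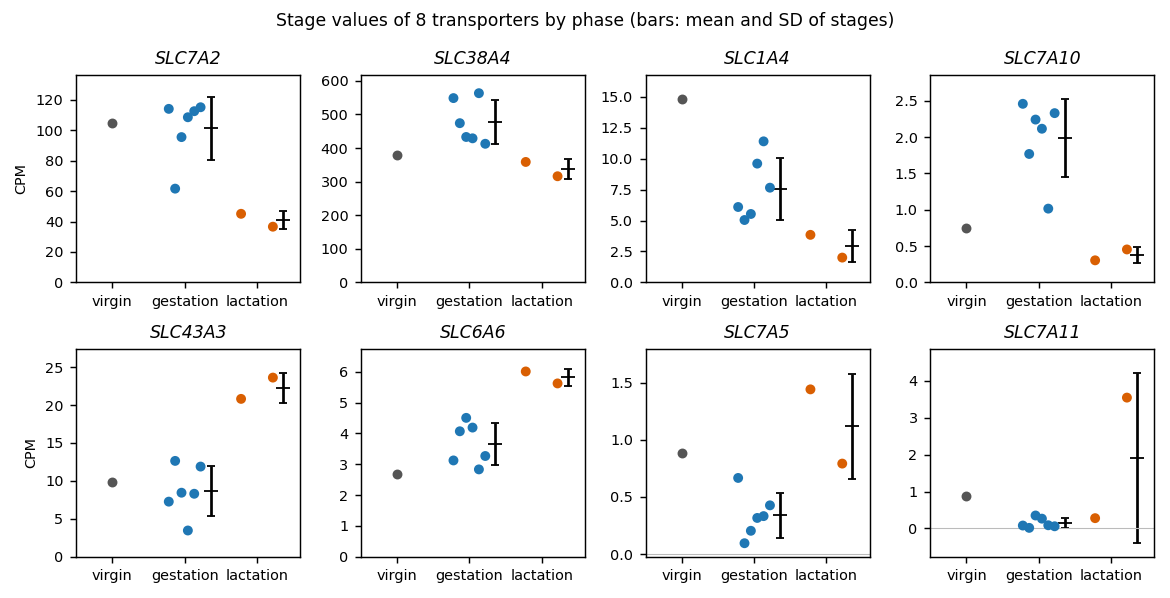
CPM of 8 transporters in the virgin sample, the 6 gestation stages (left to right by day) and the 2 lactation stages, 1 point per stage, with the mean and SD of the stages of a phase as a black bar. SLC7A2, SLC38A4, SLC1A4 and SLC7A10 lie lower in both lactation stages than in every gestation stage, and SLC43A3, SLC6A6 and SLC7A5 lie higher.

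Among the light chains of SLC7, the most abundant was SLC7A9, a carrier of cystine and basic amino acids best known from kidney and gut. Its lowest value was 24.6 CPM, at day 15 of lactation, and its highest 42.8 CPM, at days 40 to 50, and 61.5% to 83.6% of cells at the common depth had its reads. Its heavy chain partner SLC3A1 did not exceed 0.132 CPM in any stage, a gene named here after its values were seen. SLC3A2, the heavy chain that serves most other light chains, stood at 21.5 CPM in the virgin sample, 19.7 to 30.8 CPM in gestation (median 22.1), and 20.4 and 33.2 CPM in lactation. Its groups overlapped.

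The light chains that pair with SLC3A2 were each under 4 CPM in every stage. SLC7A10, a carrier of small neutral amino acids, was lower in lactation. It stood at 0.746 CPM in the virgin sample, 1.01 to 2.46 CPM in gestation (median 2.18), and 0.304 and 0.454 CPM in lactation, with no overlap between the last 2 groups (log2 2.38, SE 0.48, unadjusted p = 0.000575, adjusted p = 0.135, edgeR). DESeq2 gave an adjusted p of 5.1e-06, in a range up to 0.34 over the alternatives. Between gestation and virgin its log2 fold change was 1.41 (SE 0.61, unadjusted p = 0.0437, adjusted p = 1, edgeR).

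SLC7A11, the cystine and glutamate exchanger xCT, was rare outside day 15 of lactation. Its values were 0.883 CPM in the virgin sample, 0.0172 to 0.352 CPM in gestation (median 0.0840), 0.280 CPM at day 7 and 3.55 CPM at day 15. The lactation value at day 7 fell inside the gestation range, so the groups overlapped. The fit gave a log2 fold change of -3.73 (SE 0.98, unadjusted p = 0.00337, adjusted p = 0.231, edgeR), which shrank to -0.96 without day 15. DESeq2 gave an adjusted p of 0.0204, the lowest over the alternatives, and the highest was 0.842, without day 15. At day 15, 14.9% of cells had SLC7A11 reads at the common depth, and elsewhere the share did not exceed 4.78%.

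SLC7A5, the LAT1 carrier of leucine and other large neutral amino acids, stood at 0.887 CPM in the virgin sample, 0.0948 to 0.666 CPM in gestation (median 0.324), and 1.44 and 0.792 CPM in lactation (log2 -1.71, SE 0.64, unadjusted p = 0.0234, adjusted p = 0.429, edgeR). Both lactation stages lay above every gestation stage. At the common depth it had reads in at most 8.44% of the cells of a stage, at day 7. SLC7A7, the y+LAT1 exchanger of cationic amino acids, ran from 1.15 to 2.70 CPM and had an unadjusted p under 0.05 in no comparison.

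SLC1A2, the sodium-driven glutamate carrier EAAT2, had the widest fold range from its highest to its lowest stage among its family's reported members. Its virgin value was 18.2 CPM. In gestation it stood, by day, at 24.0, 16.8, 22.4, 40.0, 32.1 and 62.7 CPM. Averaged with equal weight per cell, the same stages held 21.0, 17.3, 16.6, 15.6, 30.6 and 47.9 CPM. At days 90 to 100, 98.0% of its reads lay in the 10% of cells with most of them, and 13.7% in 1 cell. At day 7 of lactation the summed value of SLC1A2 was 0.352 CPM (44 reads, exact Poisson interval 0.256 to 0.473, counting error only), and at day 15 it was 39.1 CPM. The highest and the lowest of the 9 stages were thus neighbours in time, on each side of birth.

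The slope of its summed counts over gestation was 1.61 log2 units per 100 days (SE 0.35, unadjusted p = 0.00178, adjusted p = 0.267, edgeR), the smallest adjusted p of a member for the trend. DESeq2 gave an adjusted p of 0.0139, in a range up to 0.755 over 11 alternatives. Between gestation and lactation the log2 fold change was 0.74 (SE 1.07, adjusted p = 0.869, edgeR), and it turned to -0.25 without day 7 of lactation and was 6.55 without day 15. Between days 140 to 150 and day 7, with 1 sample on each side, SLC1A2 was 178-fold lower at day 7 in summed counts. With equal weight per cell it averaged 47.9 and 0.651 CPM. Without cells 421 to 444 the mean at days 140 to 150 was 35.2 CPM. Of its 44 reads at day 7, 52.3% lay in 1 cell. SLC7A2 was 2.55-fold lower at day 7 in summed counts. SLC1A2 and SLC7A2 were the only members of the 15 with at least 5 CPM on the higher side that differed by 2-fold or more. Thus 0 were higher and 2 lower at day 7, which makes 0% and 13.3% of the 15, beside 4.69% and 4.8% of 8763 genes. SLC1A4 fell just short of the limit, at 1.99-fold lower. SLC7A2 was uneven along the cell numbers at days 140 to 150. Blocks of cells 421 to 492 averaged 168 to 291 CPM of it, and the other blocks 38.9 to 142 CPM. Its mean per cell was 106 CPM in that stage and 50.1 CPM at day 7. Without cells 421 to 444, the block with most SLC7A2, days 140 to 150 averaged 96.5 CPM per cell. That was under 2-fold the mean at day 7. The fold without all of cells 421 to 492 was not tested.

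Within a stage, SLC1A2 reads came in runs of consecutive cell numbers. Cells of a stage carry running numbers in the authors' table, and the labels do not say what the order stands for. In blocks of about 25 consecutive numbers, a division chosen after seeing the data, 45 of 137 blocks had SLC1A2 above 5 CPM in more than 50% of cells, and 80 blocks had it in 20% or fewer. In the virgin sample the positive blocks were 3 of 21, cells 79 to 156, where 84.6% to 96.2% of cells passed 5 CPM and which held 93.9% of the CPM summed over cells. At days 140 to 150, cells 421 to 492 were positive at 100% and averaged 238 to 296 CPM per block, while the stage as a whole averaged 47.9 CPM per cell. At day 15 of lactation 16 of 22 blocks were positive, and cells 154 to 303 were not. At day 7 no block passed 8%. Blocks with at most 20% of positive cells were present in each of the 9 stages, and at day 7 all 10 blocks were of this kind. In the other 8 stages the positive blocks held 52.5% to 99.6% of the CPM summed over cells. Both their number of cells and their level differed between stages. They held 168 of 291 cells at days 40 to 50 and 72 of 492 at days 140 to 150. Their highest block mean was 43.5 CPM at days 40 to 50 and 296 CPM at days 140 to 150. The stage means per cell were 21.0 and 47.9 CPM. The share of cells with SLC1A2 reads, at the common depth, was 16.6% in the virgin sample, 18.0% to 47.5% in gestation, 1.78% at day 7 and 64.6% at day 15.

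**Figure D3:**
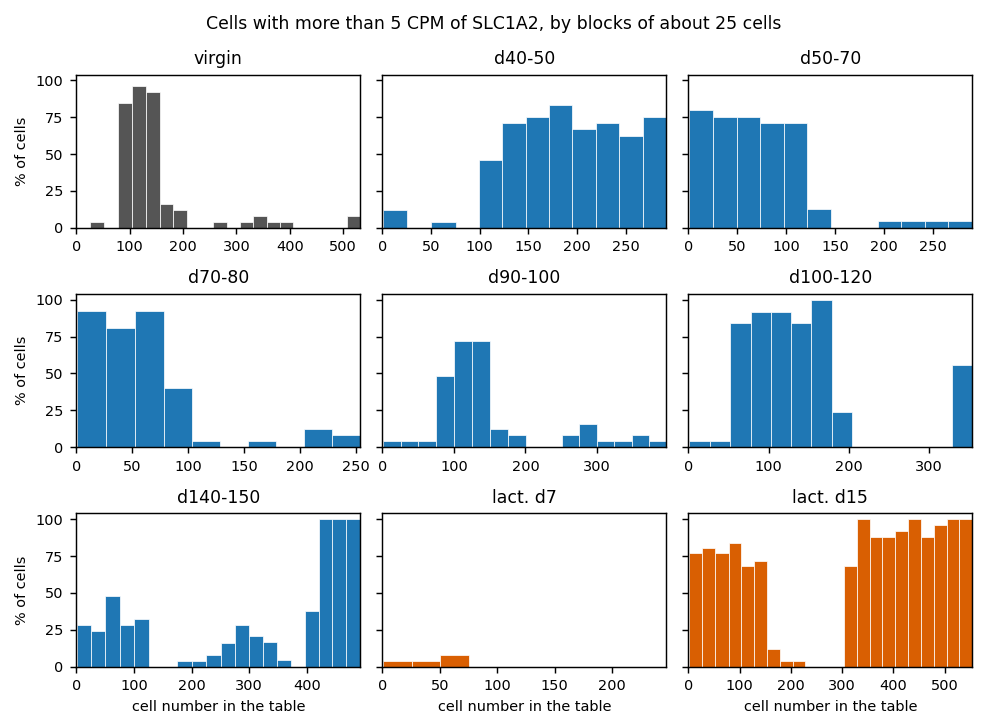
Share of cells with more than 5 CPM of SLC1A2 (vertical axis, percent) in blocks of about 25 consecutive cell numbers (horizontal axis), with 1 panel per stage. Positive cells come in runs, such as cells 79 to 156 of the virgin sample and 421 to 492 at days 140 to 150, and day 7 of lactation has no such run.

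Few genes were as uneven along the cell numbers. Of the variance of log2(CPM + 1) between the cells of a stage, 63.2% lay between blocks for SLC1A2, rank 8 among 6301 genes of at least 10 CPM, whose median was 7.88%. SLC38A2 followed at 23.6%, SLC6A11 at 21.7%, SLC38A4 at 17.7% and SLC43A3 at 16.4%, while SLC7A2 was at 11.0% and SLC38A9, at 5.64%, below the median. Other measures moved with the SLC1A2 blocks in some stages. At days 90 to 100 the positive blocks had a median of 856429 reads per cell and the others, at 20% or fewer, 389890. At days 140 to 150 ALB averaged 28648 CPM in the positive blocks and 96826 CPM in the low ones, and SLC7A2 averaged 230 and 74.9 CPM. At day 15 SLC38A2 averaged 119 and 19.7 CPM, and at days 70 to 80 19.9 and 97.0 CPM, the opposite order. The part of depth, of animals or of plates in these runs was not tested.

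How SLC1A2 stood to glutamine synthetase depended on the stage and on the scale looked at. In rodent liver this carrier is known from the pericentral cells that hold GLUL and turn ammonia into glutamine. GLUL itself was concentrated here in few cells. The 10% of cells with most GLUL averaged 243 to 2240 CPM of it and the other cells 1.52 to 15.0 CPM, and these 10% held 0% to 15.4% of the SLC1A2 reads of its stage. Spearman rho between SLC1A2 and GLUL across thinned cells ran from -0.11 to 0.23 over the 9 stages, and within blocks of cell numbers, over all cells, from -0.06 to 0.06. Other zone genes, in pairs that were not planned, also varied by stage. For SLC1A2 with the pericentral genes, rho ran from -0.39 to 0.21 for CYP2E1, -0.34 to 0.18 for RHBG and -0.38 to 0.31 for OAT. With the periportal gene CPS1 it ran from -0.09 to 0.57, and the lowest for CYP2E1 and RHBG and the highest for CPS1 fell at days 140 to 150. Between blocks, mean GLUL differed in either direction. Of the 8 stages with SLC1A2-positive blocks, mean GLUL was higher in these than in the low blocks in 6, such as 149 against 11.6 CPM at days 100 to 120 and 133 against 37.2 CPM at days 140 to 150, and lower in 2, at 22.2 against 52.2 CPM at days 40 to 50 and 203 against 328 CPM at day 15. Mean CPS1 in the same blocks was 1616 against 1869 CPM at days 100 to 120 and 3507 against 1679 CPM at days 140 to 150. SLC1A2 reads were found in 41.7% of the cells richest in GLUL and 15.4% of the other cells at days 90 to 100, and in 58.8% and 36.6% at days 100 to 120. The order was the opposite at days 40 to 50, at 22.2% and 50.4%, and in the other 6 stages the shares lay closer, the farthest apart being 38.5% and 33.2% at days 50 to 70.

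SLC1A4, the ASCT1 exchanger of serine, alanine and cysteine, was highest in the virgin sample, at 14.8 CPM. Gestation held 5.04 to 11.4 CPM (median 6.87), and lactation 3.84 CPM at day 7 and 2.01 CPM at day 15. The 3 groups did not overlap. The log2 fold change was 1.37 between gestation and lactation (SE 0.39, unadjusted p = 0.00551, adjusted p = 0.276, edgeR) and -2.34 between lactation and virgin (SE 0.52, unadjusted p = 0.00104, adjusted p = 0.556, edgeR). DESeq2 gave adjusted p values of 0.0208 and 0.0182, in ranges up to 0.602 and 0.713 over the alternatives. The share of cells with its reads followed the same order, at 40.1%, 19.0% to 35.8%, and 15.1% and 11.1% at the common depth.

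SLC1A5, the glutamine exchanger ASCT2, was close to absent, at 0.281 CPM in the virgin sample, 0.0395 to 0.307 CPM in gestation (median 0.109), and 1.17 and 0.262 CPM in lactation. Of its reads at day 7, 76.7% came from 1 cell. The log2 fold change of -2.50 (SE 0.84, unadjusted p = 0.0133, adjusted p = 0.363, edgeR) came to -1.06 without day 7. Day 7 is also the stage with the most lymphocyte and macrophage reads, as given above, and their part in SLC1A5 was not tested.

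SLC38A4 led its family in every stage, with 65.9% to 83.6% of the family's summed CPM, and at least 99.7% of cells at the common depth had its reads. It stood at 380 CPM in the virgin sample, 413 to 563 CPM in gestation (median 453), and 359 and 316 CPM in lactation. Every gestation stage lay above both lactation stages, by 1.41-fold on the means (log2 0.50, SE 0.19, unadjusted p = 0.0259, adjusted p = 0.439, edgeR).

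SLC38A2, the SNAT2 carrier that cells raise when amino acids run short, covered an 11.2-fold range over the stages. It stood at 95.2 CPM in the virgin sample. Gestation, by day, held 14.1, 20.3, 54.5, 36.3, 158 and 83.6 CPM, and lactation 69.0 and 77.4 CPM. The lowest 2 values were thus those of the earliest gestation stages. The slope over gestation was 3.21 log2 units per 100 days (SE 0.94, unadjusted p = 0.00895, adjusted p = 0.476, edgeR), with an adjusted p of 0.00202 in DESeq2 and a range up to 0.954 over the alternatives. The share of cells with reads was 38.1% at days 40 to 50 and 93.8% both at days 100 to 120 and in the virgin sample. Block means ran from 2.22 to 30.2 CPM at days 40 to 50, the lowest stage, and from 50.6 to 238 CPM at days 100 to 120, the highest. At day 15 of lactation they spread from 12.2 to 164 CPM. The blocks of a stage come from 1 sample, so these ranges describe cells and are no test of a difference between stages.

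**Figure D4:**
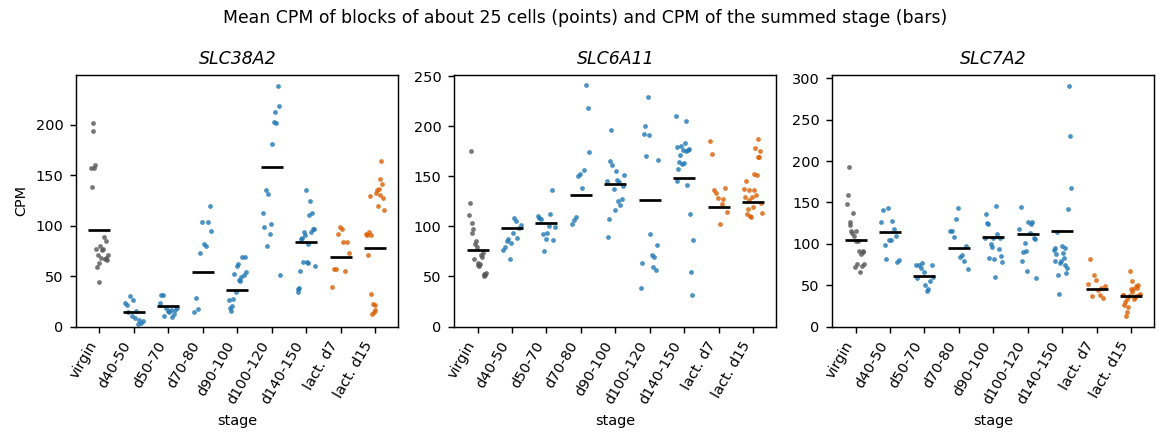
Mean CPM of SLC38A2, SLC6A11 and SLC7A2 in each block of about 25 consecutive cell numbers (points) and CPM of the summed stage (black bars), by stage. SLC38A2 blocks lie between 2.22 and 30.2 CPM at days 40 to 50 and above 50 CPM at days 100 to 120, and SLC7A2 blocks reach at most 81.2 CPM in lactation.

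SLC38A3, the SNAT3 carrier of glutamine and histidine, ran from 28.4 to 61.9 CPM over the 9 stages, with overlapping groups. SLC38A9, the lysosomal arginine sensor that reports to mTORC1, was the steadiest reported member of the family, with a 1.37-fold range from 11.3 to 15.4 CPM. SLC38A10 ran from 11.2 to 27.9 CPM, highest at days 140 to 150. SLC38A6, SLC38A7, SLC38A8 and SLC38A11 each stayed under 6 CPM, and 1.18% to 24.6% of cells had their reads.

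SLC6A11 made up 92.3% to 95.5% of the summed CPM of SLC6 in every stage. It stood at 76.8 CPM in the virgin sample, at 98.2, 103, 131, 142, 126 and 148 CPM through gestation, and at 119 and 125 CPM in lactation. The virgin sample was the lowest of the 9 stages. The log2 fold change was 0.70 between gestation and virgin (SE 0.27, unadjusted p = 0.026) and 0.67 between lactation and virgin (SE 0.30, unadjusted p = 0.0476), and the slope was 0.56 per 100 days (SE 0.24, unadjusted p = 0.0479), with adjusted p values of 1, 0.965 and 0.748 in edgeR. At least 96.0% of cells of each stage had its reads at the common depth.

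The other reported members of the family carry osmolytes and energy stores. SLC6A6, the taurine carrier, stood at 2.69 CPM in the virgin sample, 2.83 to 4.50 CPM in gestation (median 3.67), and 6.01 and 5.62 CPM in lactation. Both lactation stages were above all other stages, with a log2 fold change of -0.67 between gestation and lactation (SE 0.25, unadjusted p = 0.0213, adjusted p = 0.418) and 1.11 between lactation and virgin (SE 0.40, unadjusted p = 0.0194, adjusted p = 0.965, edgeR). SLC6A8, the creatine carrier, ran from 1.47 to 4.00 CPM with overlapping groups.

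SLC43A3, a passive carrier of nucleobases rather than amino acids, was highest in both lactation stages. It stood at 9.86 CPM in the virgin sample, 3.46 to 12.6 CPM in gestation (median 8.37), and 20.8 and 23.6 CPM in lactation. The groups did not overlap, and the lactation mean was 2.56-fold that of gestation (log2 -1.36, SE 0.36, unadjusted p = 0.00375, adjusted p = 0.24, edgeR). DESeq2 gave an adjusted p of 0.0433, in a range up to 0.505 over the alternatives. The share of cells with reads was 45.1% in the virgin sample, 16.1% to 47.8% in gestation, and 68.9% and 72.3% in lactation. SLC43A1, a carrier of large neutral amino acids, ran from 2.93 to 5.49 CPM.

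In the SLC36 family, SLC36A4 stood at 3.39 CPM in the virgin sample, 4.00 to 5.55 CPM in gestation (median 4.48), and 8.31 and 3.30 CPM in lactation, so that the 2 lactation stages were the highest and the lowest of the 9. SLC36A1, which sits on lysosomes, ran from 2.28 to 3.97 CPM. Neither had an unadjusted p under 0.05.

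By non-overlap alone, 4 members (SLC1A4, SLC7A2, SLC7A10 and SLC38A4) were higher in every gestation stage than in both lactation stages and 5 were lower, 3 of them reported (SLC6A6, SLC7A5 and SLC43A3). Among all genes tested 4.86% and 6.14% did so, which makes 8.89% and 11.1% of the members. The neutrophil sum was also higher in both lactation stages, as given above, and its part in the members that were higher there was not tested. As families, summed CPM was 142 ± 20.2 in gestation against 80.4 ± 15.4 in lactation for SLC7 (1.77-fold), 617 ± 99.5 against 495 ± 21.5 for SLC38 (1.25-fold), and 12.8 ± 3.03 against 27.2 ± 1.23 for SLC43 (2.12-fold higher in lactation). In each of these families the top member carried the difference. Without SLC7A2 the rest of SLC7 summed to 41.3 ± 5.78 CPM in gestation and 39.6 ± 9.42 in lactation. Without SLC38A4 the rest of SLC38 summed to 141 ± 52.4 and 158 ± 8.57 CPM, and without SLC43A3 the rest of SLC43 to 4.16 ± 0.931 and 4.98 ± 0.753 CPM. SLC6, at 132 ± 20.2 against 131 ± 3.89 CPM, differed by less than the spread. SLC1 (40.8 ± 18.0 against 23.4 ± 25.5 CPM), SLC3 (23.6 ± 4.45 against 26.9 ± 9.11) and SLC36 (8.11 ± 0.830 against 8.82 ± 4.24) also lay within the spread. The log2 ratio of gestation to lactation turned sign for SLC1 (from 0.80 to -0.022) and SLC36 (from -0.12 to 0.48) without day 7, and for SLC3 (from -0.19 to 0.21) without day 15. The virgin sums were 141 CPM for SLC7, 549.9 for SLC38, 14.1 for SLC43, 83.2 for SLC6 and 33.2 for SLC1.

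**Figure D5:**
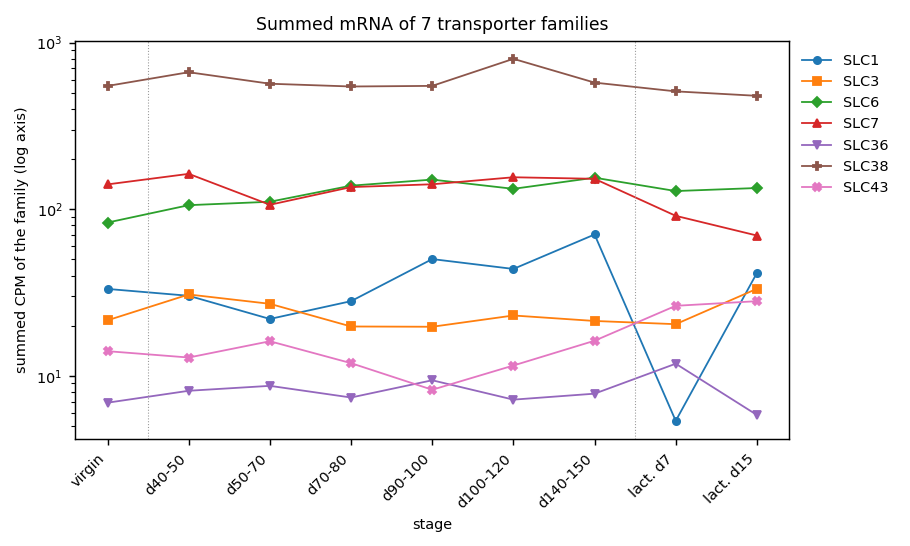
Summed CPM of the 7 families (log axis) in the 9 stages, with dotted lines between virgin, gestation and lactation. SLC38 is highest throughout at 480 to 799.9 CPM, SLC7 is lowest in the 2 lactation stages (91.3 and 69.5 CPM), and SLC1 drops to 5.37 CPM at day 7.

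Enzymes that handle the glutamate and glutamine carried by these proteins split in direction. Of 11 such genes, 4 were higher and 3 lower in gestation than in lactation at an unadjusted p under 0.05, and 0 passed after adjustment. Over all genes, 4.39% were higher and 5.01% lower at that unadjusted p. GOT1, the cytosolic aspartate aminotransferase, stood at 158 ± 59.4 CPM in gestation against 30.9 ± 6.91 in lactation (log2 2.36, SE 0.39, adjusted p = 0.0888, edgeR), and GLS2, the liver glutaminase of periportal cells, at 117 ± 45.5 against 24.3 ± 3.70 CPM (log2 2.27, SE 0.40, adjusted p = 0.0953). GLUL went the other way, at 54.7 ± 16.4 CPM in gestation, 93.6 CPM at day 7 and 251 CPM at day 15 (log2 -1.66, SE 0.35, adjusted p = 0.143). The virgin sample held 158 CPM of GOT1, 141 of GLS2 and 78.4 of GLUL.

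By zone, 10 of 10 measured periportal genes had a positive log2 fold change between gestation and lactation and 5 had an unadjusted p under 0.05, with a median of 0.88. Over all genes 51% were positive, and 4.39% were so at an unadjusted p under 0.05. CPS1, ASS1, ASL and ARG1 of this list were also counted among the arginine and urea genes, and GLS2 among the glutamate genes. Of the 12 general hepatocyte markers, among which CPS1 was counted again, 11 were positive as well, with a median of 0.51. Of 10 pericentral genes 5 were positive, with a median of -0.03. An unadjusted p under 0.05 was found for 3, of which 1 was positive and 2 negative, beside 4.39% and 5.01% of all genes. Besides GLUL these 3 genes were AXIN2, a target gene of Wnt signalling (2.71 ± 1.17 against 6.63 ± 1.44 CPM), and OAT, the ornithine aminotransferase (19.3 ± 29.8 against 0.591 ± 0.270 CPM). GLUL, OAT and RHBG of the pericentral list were also counted among the glutamate genes, and OAT among the arginine and urea genes. No periportal or pericentral gene passed after adjustment. SDS, the serine dehydratase of periportal cells, had the smallest p of its list for the trend, with 9.02 CPM at days 40 to 50 and 110 CPM at days 140 to 150 (slope 3.31 per 100 days, SE 0.66, unadjusted p = 0.000999, adjusted p = 0.217, edgeR).

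Genes that sense amino acid supply were not called either. Of 30 sensing genes tested, 2 were higher and 3 lower in gestation than in lactation at an unadjusted p under 0.05, and the median was -0.01. Over all genes, 4.39% were higher and 5.01% lower at that p. SESN3, one of the sestrins that hold back mTORC1, had a mean of 89.7 ± 13.7 CPM over gestation and 40.0 ± 5.70 over lactation, with 54.3 in the virgin sample (log2 1.16, SE 0.20, unadjusted p = 0.000173, adjusted p = 0.0953, edgeR). SESN1 stood at 8.77 ± 1.05 against 4.64 ± 0.915 CPM. ATF5, a transcription factor of the amino acid response, stood at 173 ± 53.4 CPM in gestation against 385 ± 102 in lactation (log2 -1.16, SE 0.30, adjusted p = 0.229, edgeR). Of 16 tested target genes of ATF4 outside the carriers, 1 was higher and 5 were lower in gestation at an unadjusted p under 0.05. The shares over all genes were again 4.39% and 5.01%, and the median of the 16 was -0.47. ALDH1L2, a mitochondrial folate enzyme, stood at 4.92 ± 1.79 against 15.0 ± 2.86 CPM, ASNS, the asparagine synthetase, at 5.23 ± 0.862 against 12.3 ± 5.80 CPM, and the virgin sample at 13.3 and 8.94 CPM. CEBPB, a transcription factor, had the smallest p of the list for the trend, with a slope of 1.44 per 100 days (SE 0.38, unadjusted p = 0.0055, adjusted p = 0.396, edgeR).

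The other 31 members stayed under 1 CPM in every stage, and 2 of them had no read in any cell. The members nearest the limit were SLC1A5, at 1.17 CPM in its highest stage, and SLC43A2, at 0.948 CPM. All the members together took 0.0815% to 0.108% of the reads of a stage, and the median cell at the common depth had reads of 9 to 11 of the 58.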

How the data were processed

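Reads were counted by the authors, and the deposited values are whole-number counts for each gene in each cell, not normalized. The submitters' processing notes name featureCounts 2.0.1, HISAT2 2.1.0 and Trimmomatic 0.39, with no role or order. Genome build, use of strand and of molecular identifiers are not given in the sources used here, so reads of overlapping or near-identical genes cannot be told apart. In the RefSeq gene order (assembly ARS-UI_Ramb_v3.0, used for names and neighbours, 58 of 58 symbols matched) SLC38A4 and SLC38A2 are neighbours.

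The 24 rows that name no gene, with 0.474% of reads, stayed out of library sizes and tests. Counts were summed per stage and fitted with edgeR 4.0.16 (filterByExpr, TMM, quasi-likelihood test, Benjamini-Hochberg adjustment over all genes, threshold 0.05) with a term per phase, and with a slope over the 6 gestation stages. The SE is the log2 value divided by the square root of F. Alternatives were DESeq2 1.42.0, limma 3.58.1 on log2(mean CPM + 1) with equal weight per cell, library size only, no filter and leaving out each stage. The fits were tested on simulated counts. For shares, cells were thinned to 155164 reads, which kept 3063 and left out 341. Intervals are 95%. Doublets were not called, since cells were picked singly. The members and lists were chosen with earlier results of these data known. All members of at least 1 CPM in a stage are reported, with values in every stage (or the lowest, median and highest of gestation) for those with an unadjusted p under 0.05, the highest of each family, SLC1A2 and SLC7A2. Of the lists, called genes or else up to 3 with the smallest unadjusted p under 0.05 are named. Across birth, members of at least 5 CPM that differ 2-fold are named.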

Additional observations from a re-analysis of the deposited data

Results flagged for a closer look

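Among the 27 reported members, 3 had a gestation stage set apart from the other 5 by a gap above Dixon's 95% critical value for 6 samples, which chance does in about 1 in 20 groups. SLC7A1 stood at 5.77 CPM at days 100 to 120, where the next highest gestation stage had 0.908 CPM, and its mean per cell there was 5.48 CPM with and 3.04 CPM without 1 run of 25 consecutive cell numbers. SLC7A2 stood at 61.6 CPM at days 50 to 70, where the next lowest had 95.4 CPM. SLC38A10 stood at 27.9 CPM at days 140 to 150, where the next highest had 16.1 CPM.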

How the results depend on the processing

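Among the 4 comparisons, counts of members at an adjusted p under 0.05 were 0 in edgeR and under each alternative except DESeq2, which gave 5 (gestation against lactation), 1 (lactation against virgin) and 2 (trend). Counts at an unadjusted p under 0.05 moved from 2 to 4 in DESeq2 and 1 with equal weight per cell (gestation against virgin), and from 4 to 7 in both (lactation against virgin). Leaving out 1 stage gave 8 to 12, 1 to 5, 3 to 6 and 2 to 5 members in the order gestation against lactation, gestation against virgin, lactation against virgin and trend. It moved the log2 ratio of family sums between gestation and lactation over -0.022 to 2.93 for SLC1, -0.50 to 0.21 for SLC3 and -0.54 to 0.48 for SLC36, which was -0.31 with library size only. SLC1A2 between gestation and lactation turned to -0.25 without day 7 and was 6.55 without day 15. The cause was not tested, beyond fewer samples in these. Library size as the only scaling shifted the median of all genes by -0.19 between gestation and lactation, and no named member turned sign under it. Leaving out the cell with most reads in each stage moved none of 10 ratios by more than 1 SD. No paired analysis was possible because the replicate numbers were given in accession order and tie no stage of 1 group to a stage of another. With 1 sample per stage and no animals named, differences between stages and between animals cannot be told apart.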

Other observations

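Carriers of amino acids outside the 7 families were measured as well, most of them in the inner mitochondrial or the lysosomal membrane. Of 13 tested, 2 were higher and 3 lower in gestation than in lactation at an unadjusted p under 0.05, and 0 passed after adjustment. Over all genes, 4.39% were higher and 5.01% lower at that unadjusted p. CTNS, the lysosomal cystine exporter, held 1.34 ± 0.542 CPM during gestation, 4.18 CPM at day 7 and 2.69 CPM at day 15 of lactation (log2 -1.36, SE 0.42, adjusted p = 0.327, edgeR). SLC66A1, which exports cationic amino acids from lysosomes, held 3.70 ± 1.35 CPM during gestation and 7.56 CPM at both lactation days (log2 -1.03, SE 0.34, adjusted p = 0.363, edgeR). SLC25A29, a mitochondrial carrier of basic amino acids, had 4.38 CPM at days 40 to 50 and 12.7 CPM at days 140 to 150, with a slope of 1.40 log2 units per 100 days (SE 0.37, unadjusted p = 0.00521, adjusted p = 0.389, edgeR).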
